A study of Homo sapiens with 19 samples.

Results

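The 4 human tropomyosin genes TPM1, TPM2, TPM3 and TPM4 were followed through the RNA splicing tables of a study of AKAP8, an RNA-binding protein, in epithelial cells and in cells that had gone through an epithelial-mesenchymal transition (EMT). Every splicing event that the tables list under one of these gene symbols was taken, which gave 49 distinct events of 100239 and 4 genes of 11998. The cells were HMLE/Twist-ER, an established line of immortalized human mammary epithelial cells that carries an inducible form of the transcription factor Twist, so that tamoxifen at 20 nM turns the epithelial state (EPI) into the mesenchymal state (MES). All lines of the RNA sequencing also carried a lentiviral short hairpin RNA, either a non-specific one (control) or one against AKAP8 (shAKAP8), and RNA was sequenced from 3 EPI control, 3 EPI shAKAP8, 3 MES control and 2 MES shAKAP8 libraries. AKAP8-bound RNA was mapped by eCLIP, a crosslinking and immunoprecipitation method, with 2 immunoprecipitations in each state. The study's methods call the libraries of a group biological replicates, while neither they nor the labels say whether these were separately derived knockdown lines. The p-values therefore measure the spread between these libraries, moderated toward that of other events or genes.

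Each event gives the junction reads of an inclusion form and a skipping form. From these, the percent spliced in (PSI) of every library was recomputed, and events with an average of at least 20 junction reads per library were tested for a difference between groups with a quasi-binomial test whose dispersion was moderated with limma. An event was called at an adjusted p (false discovery rate, FDR) under 0.05 with a PSI difference of at least 10 percentage points. The libraries held 31258177 to 40852217 junction reads of skipped-exon events. AKAP8 itself, measured as scaled junction reads of its gene, was at 244, 311 and 246 in the EPI controls and at 121, 99.1 and 125 in EPI shAKAP8, a fold of 0.434 (adjusted p = 0.066 in limma). It was at 383, 196 and 248 in the MES controls and at 109 and 122 in MES shAKAP8, a fold of 0.436 (adjusted p = 0.032 in limma). Control and shAKAP8 libraries did not overlap in either state. Of the epithelial markers checked, 5 of 5 with a value were lower in MES than in EPI controls past the cutoffs, and 7 of 7 mesenchymal markers were higher. The summed level of the former was 7374 to 8799 scaled reads in EPI controls and 549 to 898 in MES controls, and that of the latter 691536 to 1575794 and 2926831 to 5324195. Most of the latter sum was FN1, at 663198 to 1539315 in EPI controls and 2781196 to 5173376 in MES controls. Of the 7 muscle markers SMTN alone had a value. Its log2 fold change was -0.76 in EPI knockdown (adjusted p = 0.2 in limma), -0.93 in MES knockdown (adjusted p = 0.048) and -0.86 in EMT (adjusted p = 0.011). It was not called, as each was under the cutoff of a log2 fold change above 1 in size.

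Tropomyosins are coiled-coil proteins that lie end to end along actin filaments and govern which motors, severing factors and capping proteins reach the filament. Each gene makes several isoforms through alternative first exons, mutually exclusive internal exons and alternative last exons. The best known internal choice is at exon 6, where TPM1, TPM2 and TPM3 hold a pair of exons of equal length, 6a and 6b, of which a transcript uses one. In TPM2, exon 6b is the classical choice of skeletal muscle and exon 6a that of smooth muscle and nonmuscle cells. TPM4 has a single exon at this place.

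The exon 6 sequences are shown because this choice carried every splicing call in the family. They are given 5′ to 3′ on the coding strand from GRCh37. Capitals in the 6b lines mark bases that differ from exon 6a of the same gene at the same position, and capitals in the TPM4 line mark bases that differ from TPM2 exon 6a.
TPM2 6a: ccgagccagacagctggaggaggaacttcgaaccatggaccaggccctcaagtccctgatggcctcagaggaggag
TPM2 6b: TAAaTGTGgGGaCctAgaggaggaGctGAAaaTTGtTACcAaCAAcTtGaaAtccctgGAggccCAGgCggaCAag
TPM1 6a: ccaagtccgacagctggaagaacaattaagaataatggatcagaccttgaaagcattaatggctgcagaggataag
TPM1 6b: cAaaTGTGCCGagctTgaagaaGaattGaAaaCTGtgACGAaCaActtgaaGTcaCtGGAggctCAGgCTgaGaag
TPM3 6a: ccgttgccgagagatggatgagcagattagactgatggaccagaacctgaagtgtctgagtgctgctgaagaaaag
TPM3 6b: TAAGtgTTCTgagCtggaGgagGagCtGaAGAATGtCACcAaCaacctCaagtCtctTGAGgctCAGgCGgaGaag
TPM4 exon: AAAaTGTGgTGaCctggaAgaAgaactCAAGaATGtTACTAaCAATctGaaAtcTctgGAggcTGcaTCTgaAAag

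All of them are 76 bases long and entirely coding in the annotated transcripts that use them (Gencode lifted to GRCh37). TPM2 lies on the minus strand, with 6a at chr9:35685061-35685136 and 6b at chr9:35684729-35684804. TPM1 lies on the plus strand, with 6a at chr15:63353397-63353472 and 6b at chr15:63353912-63353987. TPM3 lies on the minus strand, with 6a at chr1:154144505-154144580 and 6b at chr1:154143889-154143964. The TPM4 exon is at chr19:16199855-16199930 on the plus strand. In each of TPM1, TPM2 and TPM3, exon 6b is exon 6 of the canonical transcript and exon 6a is absent from it. Exon 6a was 52.6 to 56.6% identical to exon 6b of its own gene. The 6b exons were more alike between genes, at 76.3 to 78.9%, than the 6a exons, at 64.5 to 68.4%. The single TPM4 exon was 72.4 to 73.7% identical to the 6b exons and 47.4 to 53.9% identical to the 6a exons, so it was closer to 6b than to 6a in all 3 genes.

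In EPI cells with AKAP8 knockdown, the TPM2 transcripts moved toward exon 6b. The share of 6b among the reads of both exons was 17.5%, 15.2% and 15.9% in the control libraries and 33.4%, 32.6% and 29.7% in the shAKAP8 libraries. The highest control stood below the lowest shAKAP8 library by a wide margin. The mean rose from 16.2% ± 1.19 to 31.9% ± 1.94 (SD, n = 3 each), a difference of 15.7 percentage points (adjusted p = 9.7e-12 in the quasi-binomial test moderated with limma). This was the smallest p of all 11489 mutually exclusive exon pairs tested in EPI cells. These shares rest on 5287 junction reads per library on average. The test took the variance between libraries as 4.41 times that of read counting alone, a value moderated toward those of other events.

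The skipped-exon tables hold the same choice again. One event sets exon 6b against a direct junction from 6a to the next exon, and another sets exon 6a against a junction into 6b, so they share junction reads with the exon pair and are not independent of it. Their PSI values differ from the pair's shares because 6a and 6b are almost never joined to each other, which leaves 1 of the 2 inclusion junctions nearly empty. The 6b event rose from 9.49% ± 1.12 to 19.9% ± 0.485 (SD, n = 3 each) in EPI cells after knockdown (adjusted p = 1.2e-13), and the 6a event fell from 72.3% ± 2.37 to 52.0% ± 3.5 (adjusted p = 5.8e-13). By p they ranked 1 and 2 of the 47579 skipped-exon events tested.

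In MES cells the TPM2 choice moved the same way. The tables of this comparison hold 2 of the 3 MES control libraries. Their 6b shares were 18.7% and 19.3%, against 32.5% and 32.2% in the shAKAP8 libraries. The difference of 13.4 points (adjusted p = 7.9e-05, n = 2 each) was again the smallest p, here of 9877 exon pairs. The skipped-exon event of 6a fell by 18.2 points (adjusted p = 2.6e-12), and that of 6b rose by 8.08 points (adjusted p = 2.5e-09), which is under the 10-point cutoff. MES control 3, whose reads of the same exons stand in the EMT tables, was apart from the other controls with a 6b share of 25.9%, still below both shAKAP8 libraries. With it included the difference of the exon pair was 11.1 points and no longer passed the test (adjusted p = 0.60), whereas the 6a event stayed called at a fall of 15.7 points (adjusted p = 8.3e-08). The call of the pair was also lost without MES control 1 (adjusted p = 0.64) or without MES control 2 (adjusted p = 0.37), which leaves a single control, while the 6a event kept its call in both.

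Between EPI and MES controls, TPM2 was less clear. The 6b share was 16.2% ± 1.19 in EPI and 21.3% ± 3.97 in MES controls (SD, n = 3 each), a difference of 5.1 points (adjusted p = 0.49). The groups did not overlap, but the MES controls spread from 18.7% to 25.9%. Without MES control 3 the difference was 2.81 points (adjusted p = 0.019), under the 10-point cutoff.

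**Figure D1:**
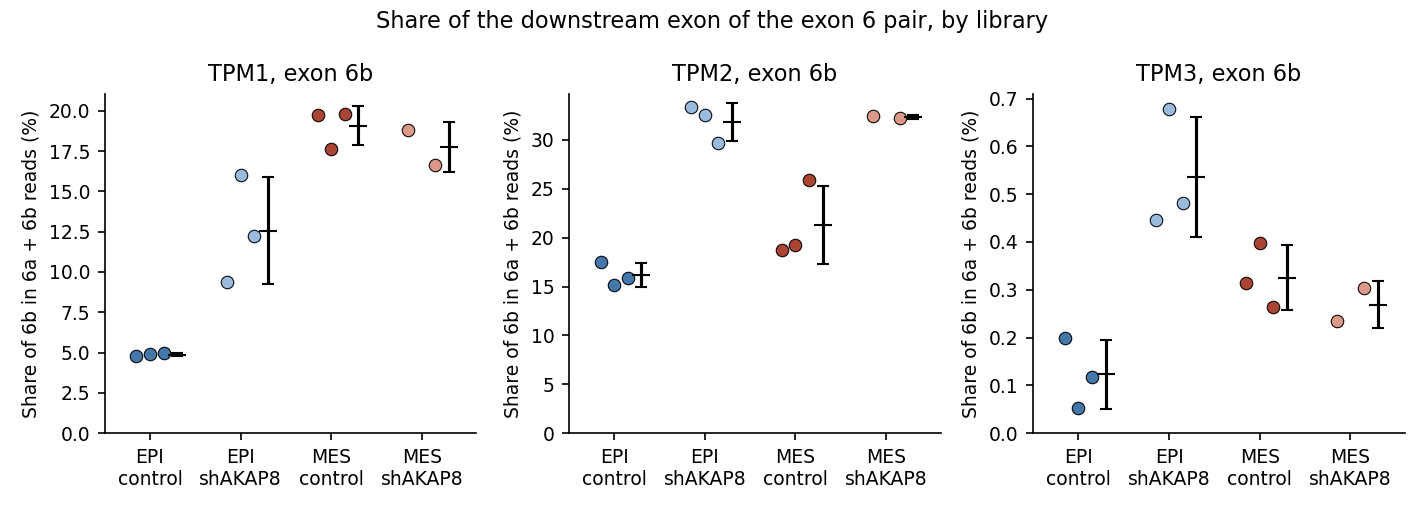
Share of exon 6b in the junction reads of exons 6a and 6b (%, vertical axis, a separate scale in each panel) for TPM1, TPM2 and TPM3; each point is a library, and the bar beside it gives the mean ± SD of the group. TPM2 sits at 29.7 to 33.4% in the shAKAP8 libraries of both states, whereas TPM1 lies at 16.6 to 19.8% in all MES libraries and at 4.77 to 4.94% in the EPI controls.

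TPM1 followed another pattern. Exon 6b made up 4.77%, 4.90% and 4.94% of the pair in the EPI controls, a spread of 0.0897 points (SD). In EPI shAKAP8 it made up 9.40%, 16.0% and 12.3%. All knockdown libraries lay above all controls, and they varied more among themselves than the controls did. The control shares rest on 67.3 reads of 6b per library on average, so their close agreement may understate their spread. The mean 6b share rose by 7.68 points after knockdown (adjusted p = 0.002 in the quasi-binomial test), the smallest p but 2 among the 11489 pairs, and stayed under the 10-point cutoff. Its adjusted p was 0.14 without EPI control 1, 0.08 without EPI control 2 and 0.14 without EPI shAKAP8 3. The skipped-exon event of TPM1 exon 6a, which reads the same choice on the other scale, fell from 91.1% ± 0.683 to 78.5% ± 6.09 (SD, n = 3 each) and was called (adjusted p = 0.032). That call was lost without EPI control 1, 2 or 3, or without EPI shAKAP8 2 or 3, with falls of 9.61 to 13.0 points in those fits (adjusted p = 0.15 to 0.64).

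The largest TPM1 difference was between the states. The 6b share was 19.7%, 17.7% and 19.8% in the MES controls, above every EPI library. Set against 4.87% ± 0.0897 in EPI controls, the mean of 19.1% ± 1.22 (SD, n = 3 each) was higher by 14.2 points (adjusted p = 1.3e-22). The skipped-exon event of 6a fell by 26.0 points (adjusted p = 8.9e-15) and that of 6b rose by 7.24 points (adjusted p = 5.5e-10). The EPI knockdown and the EMT comparison share their 3 EPI control libraries, and the MES knockdown shares its 2 controls with the EMT comparison.

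In MES cells AKAP8 knockdown left the TPM1 pair where it was within the spread of the libraries. The 6b share was 18.8% and 16.6% in MES shAKAP8, inside or just below the range of the MES controls, and exon 6a differed by 0.959 points (adjusted p = 1). Tested over all 11 libraries, the effect of the knockdown on the share of 6a was a fall of 7.68 points in EPI cells and a rise of 1.33 points in MES cells, and the difference between the states was 9.02 points (adjusted p = 0.0053). For the TPM2 pair the effects were falls of 15.7 and 11.1 points, and their difference of 4.6 points did not pass the test (adjusted p = 0.80). Of the 31 tropomyosin events in this test, 0 passed both cutoffs, against 0.00855% of all 35082 events.

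TPM3 used exon 6a almost alone. Exon 6b was read 9, 3 and 5 times in the EPI controls beside 4238 to 5628 reads of 6a, and 23, 34 and 22 times in EPI shAKAP8. Its share was 0.198%, 0.0533% and 0.118% in the controls and 0.446%, 0.679% and 0.481% after knockdown. The groups did not overlap, and the rise of 0.412 points missed the cutoffs (adjusted p = 0.094). In MES it was 0.314%, 0.398% and 0.264% in the controls and 0.234% and 0.304% in shAKAP8, and the difference in the MES tables was 0.0871 points (adjusted p = 1). From EPI to MES controls the share differed by 0.202 points (adjusted p = 0.10).

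**Figure D2:**
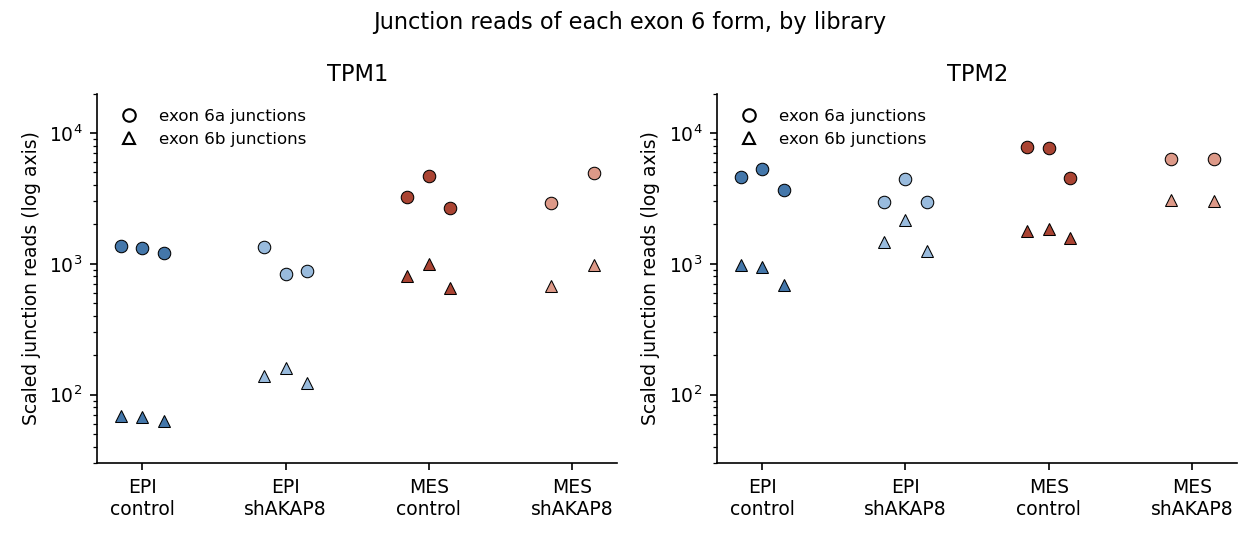
Junction reads of exon 6a (circles) and exon 6b (triangles) of TPM1 and TPM2 in each library, divided by the size factor of the library (log axis). In TPM1, 6b reads rise from 63.3 to 68.5 in EPI controls to 656 to 1003 in MES controls while 6a reads rise as well; in TPM2, 6b reads are higher in shAKAP8 than in control libraries of the same state.

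The share alone does not say which form moved, so the reads of each form were also put on a common scale with the size factors of the libraries. These levels are descriptions without a test. In EPI cells after knockdown, TPM2 6b reads went from 874 ± 161 to 1630 ± 464 and 6a reads from 4530 ± 820 to 3470 ± 858 (SD, n = 3 each), folds of 1.87 and 0.766. In MES cells, 6b reads went from 1730 ± 131 (n = 3) to 3030 ± 33.9 (n = 2) and 6a reads from 6650 ± 1820 to 6320 ± 18.4, folds of 1.75 and 0.951. The 6b form was thus higher after knockdown in both states, and the 6a ranges overlapped between control and shAKAP8. For TPM1 in EPI cells, 6b reads went from 66.6 ± 2.91 to 141 ± 18.6 and 6a reads from 1300 ± 77.4 to 1020 ± 279 (SD, n = 3 each). Between EPI and MES controls, both TPM1 forms were higher in MES, 6b by a fold of 12.3 and 6a by a fold of 2.71.

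Counted over the family, 4 of 42 tested events were called in EPI knockdown, against 0.0446% of all 65008 events. In MES knockdown 2 of 40 were called, against 0.0506% of 59288, and in the EMT comparison 2 of 44, against 1.52% of 67451. The 4 calls in EPI cells are 3 readings of the TPM2 pair and 1 of the TPM1 pair. Both calls in MES cells belong to TPM2, and both in the EMT comparison belong to TPM1. No TPM3 or TPM4 event was called in any comparison by the moderated test. With a dispersion estimated from each event alone, 0 tropomyosin events were called in EPI knockdown, MES knockdown or EMT (0, 0 and 15 over all events), while 4, 2 and 2 passed 10 points at an unadjusted p under 0.05. With limma on the logit of PSI, 0, 0 and 2 were called (0, 0 and 471 over all events). Most other events differed little. In EPI knockdown, 27 of 42 differed by under 1 point, and the median absolute difference was 0.298 points over the tropomyosin events and 0.777 points over all events. The medians were 0.247 and 1.01 points in MES knockdown, and 0.299 and 0.934 points in the EMT comparison. Larger differences among uncalled events, such as 17.1 points for TPM3 exon 9a in the EMT comparison and 16.3 points in TPM1 in MES knockdown, did not pass the test. Libraries of the groups did not overlap in 13 of 42 tested events in EPI knockdown, 18 of 40 in MES knockdown and 13 of 44 in the EMT comparison, against 6.76%, 24.1% and 12.5% of all events.

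**Figure D3:**
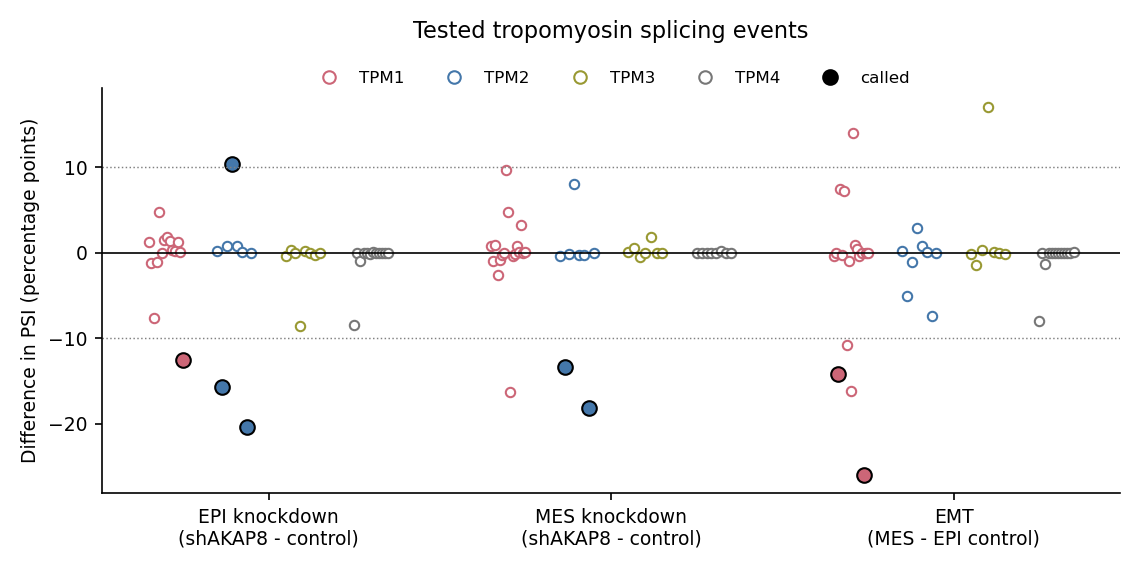
Difference in PSI (percentage points) of every tested tropomyosin event in the 3 comparisons, coloured by gene; filled points are the called events and dotted lines mark 10 points in either direction. The called points are TPM2 and TPM1 in EPI knockdown, TPM2 alone in MES knockdown and TPM1 alone in the EMT comparison.

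Away from exon 6, the choice between TPM1 exons 2a (chr15:63335905-63336030) and 2b (chr15:63336226-63336351), both 126 coding bases and 49.2% identical, stayed with 2b. Exon 2a is the classical choice of smooth muscle. Its share was 2.05%, 2.37% and 1.19% in EPI controls and 0.939%, 0% and 1.10% in EPI shAKAP8 (adjusted p = 0.77), where the 0% is 0 of 477 reads. In MES it was 2.53%, 1.99% and 1.06% in controls and 0.901% and 1.63% in shAKAP8 (adjusted p = 1 in the tables with 2 controls). The EPI shAKAP8 libraries lay below all EPI controls, on 6, 0 and 5 reads of exon 2a against 12, 15 and 6, and the difference did not pass the test (unadjusted p = 0.044). In MES cells control 3 fell among the shAKAP8 libraries.

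Exon 9a, the last coding exon of striated muscle isoforms and the part that meets troponin there, was rare before the main last exon. These events set 9a, joined on to the main last exon, against a direct junction to that exon. In both canonical transcripts 9a is exon 9 of 10. Where 9a is followed by another exon, 1 of the 2 inclusion junctions is empty and the PSI understates its use. The 2 junctions were not counted apart. In TPM3 (chr1:154141781-154141859) its PSI was 1.42% ± 0.488 in EPI controls, 1.38% ± 0.24 in EPI shAKAP8, 1.77% ± 0.365 in MES controls (SD, n = 3 each) and 1.37% ± 0.0184 in MES shAKAP8 (SD, n = 2). In TPM1 (chr15:63356263-63356341) it was 2.35% ± 1.21 in EPI controls, 4.22% ± 2.94 in EPI shAKAP8 and 1.38% ± 0.378 in MES controls (SD, n = 3 each). EPI shAKAP8 library 2 alone stood at 7.61%, the others at 2.45 to 2.59%. A second event of each gene covers transcripts that go on to another, little used downstream exon, on far fewer reads. Its PSI is the share in which 9a comes before that exon, and not a choice between the exons. In TPM1 its PSI was 79.1% ± 20.9 in EPI controls and 68.4% ± 4.62 in MES controls, and in TPM3 it was 73.0% ± 4.57 and 90.1% ± 4.42 (SD, n = 3 each). The TPM3 difference of 17.1 points between the states had no overlap between libraries, on 40.3 reads per library, and an adjusted p of 0.71. No comparison of exon 9a was called. The exon is 79 bases long in both genes, with 86.1% identity between them.

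TPM4 exons were included nearly always. The group means of its 8 tested skipped-exon events lay between 99.65 and 100%. Its 76-base exon, the counterpart of exon 6, stood at 99.9% in EPI controls. In MES cells it was 99.8% in controls and 100% after knockdown, a difference of 0.228 points (adjusted p = 0.81). The exon pairs listed for TPM4 set neighbouring exons against each other that the skipped-exon events show as included nearly always, so their shares do not measure an exclusive choice. For the pair led by the exon at chr19:16192723-16192856, the share was 24.4%, 20.9% and 14.2% in EPI controls and 17.8%, 6.57% and 9.51% in EPI shAKAP8. The groups overlapped, and the difference of 8.5 points did not pass the test (adjusted p = 0.85).

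**Figure D4:**
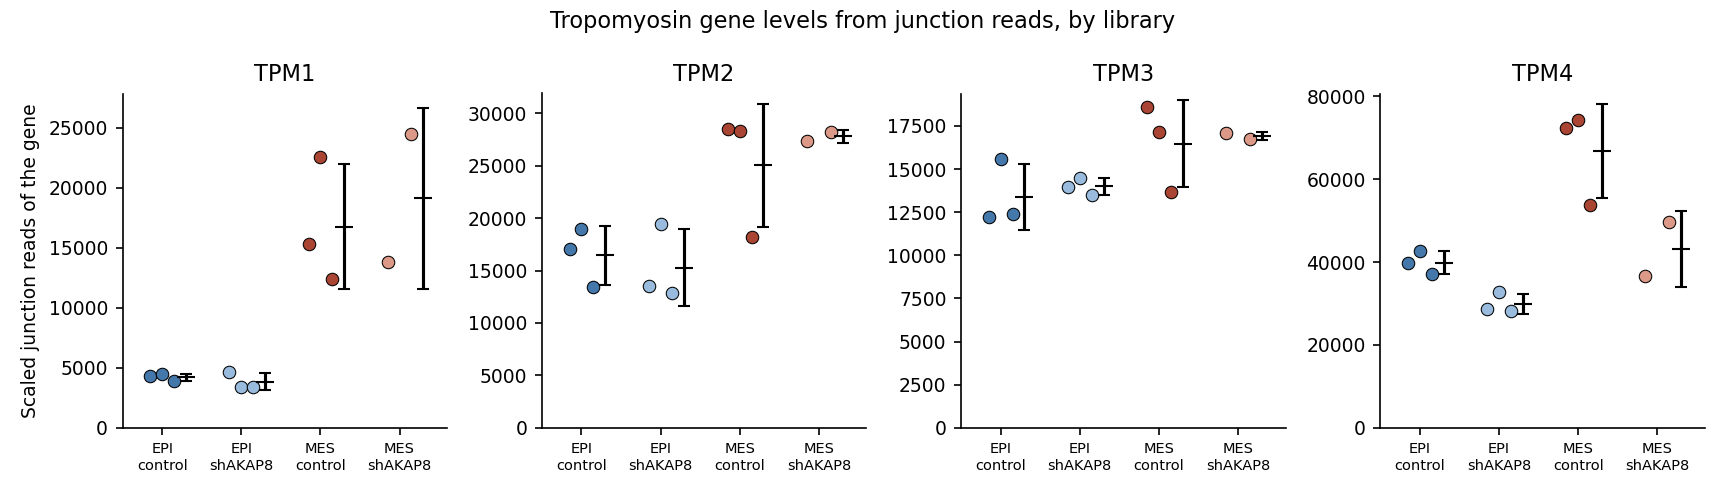
Gene level of TPM1, TPM2, TPM3 and TPM4 as scaled junction reads (vertical axis, from 0, a separate scale in each panel) in each library, with the mean ± SD of the group beside the points. TPM1 lies at 3428 to 4652 in EPI and at 12396 to 24456 in MES libraries, and TPM4 is lower in shAKAP8 than in control libraries of the same state.

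Gene levels were approximated by the junction reads of skipped-exon events summed over a gene, scaled by median-of-ratios size factors and tested with limma on log2(value + 1), with calls at an adjusted p under 0.05 and a log2 fold change above 1 in size. In cultures sequenced in bulk, fewer cells that express a gene and less RNA per cell cannot be told apart. TPM1 was higher in the MES state. Its level was 4292, 4440 and 3881 in EPI controls and 15305, 22528 and 12396 in MES controls, a log2 fold change of 1.95 ± 0.24 (SE, adjusted p = 7.2e-05 in limma), or 3.87-fold. The lowest MES control lay above the highest EPI control by a wide margin. It was the only tropomyosin of 4 called in this comparison, where 12.5% of all 9017 genes were called.

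TPM4 was also higher in MES controls, at 72283, 74351 and 53678 against 39748, 42597 and 37029 in EPI controls, a log2 fold change of 0.73 ± 0.17 (SE, adjusted p = 0.0069 in limma), under the fold cutoff. TPM2 (0.59 ± 0.21, adjusted p = 0.061 in limma) and TPM3 (0.30 ± 0.15, adjusted p = 0.18) did not pass the test.

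After AKAP8 knockdown no tropomyosin level passed the cutoffs in limma, in EPI cells (0.189% of 9017 genes called) or in MES cells (2.27% called), and in each state 1 of 4 genes had an unadjusted p under 0.05, as did 891 of all 9017 genes in EPI and 1964 in MES cells. That gene was TPM4. It stood at 28586, 32657 and 28233 in EPI shAKAP8, below all EPI controls, a log2 fold change of -0.42 ± 0.17 (SE, adjusted p = 0.44). In MES shAKAP8 it stood at 36655 and 49580, below all MES controls, with a log2 fold change of -0.63 ± 0.19 (SE, adjusted p = 0.078, and 0.029 when scaled to total reads). TPM1, TPM2 and TPM3 had log2 fold changes of -0.14 to 0.07 in EPI cells and of 0.05 to 0.18 in MES cells, all with SE of 0.15 to 0.27. The splicing shift of TPM2 after knockdown thus came without a called change in its summed reads.

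Compared per position of junction sequence, at the best covered skipped-exon event of each gene, TPM4 was highest in EPI controls at 59.7 ± 4.27 scaled reads per position (SD, n = 3), ahead of TPM2 at 28.6 ± 5.45 and TPM3 at 27.3 ± 3.99, whose libraries overlapped. TPM1 was lowest at 8.32 ± 0.214. In MES controls the levels were 104 ± 17 for TPM4, 43.0 ± 10.9 for TPM2, 33.5 ± 5.3 for TPM3 and 25.6 ± 7.28 for TPM1 (SD, n = 3 each). There TPM1 at 19.3 to 33.6 overlapped TPM3 at 27.6 to 37.7, whereas in EPI controls their libraries did not overlap. These orders depend on the event chosen. By the median over the skipped-exon events of a gene, TPM4 at 27.9 to 31.4 overlapped TPM2 at 21.1 to 30.4 in EPI controls, and TPM1 at 7.48 to 13.7 stayed below TPM3 at 22.3 to 31.8 in MES controls.

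The genes whose log2 levels tracked each member most closely over the 11 libraries, among 7454 other genes with a mean of at least 100 scaled reads, were COL1A1, KANK2 and SERPINE2 for TPM1 (Pearson r = 0.978, 0.977 and 0.977). They were IRF1, PALLD and GSR for TPM2 (r = 0.984, 0.975 and 0.970), VPS18 and RBM3 for TPM3 (r = 0.975 and 0.954) and CCDC92, MAN2B2 and CCBE1 for TPM4 (r = 0.974, 0.972 and 0.948). All points share the split into EPI and MES libraries and the size factors, and the values are descriptions.

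Of 26 genes listed as partners of tropomyosin, which cover actins, actin-binding proteins and myosin chains, 13 had a level. In the EMT comparison, 2 rose and 0 fell past the cutoffs, where 12.5% of all 9017 genes were called. The median log2 fold change was 0.26 over the list and 0.011 over all genes. MYL9, a regulatory light chain of nonmuscle and smooth muscle myosin, rose from 95.7 to 2450 scaled reads (log2 fold change 4.53 ± 0.37 SE, adjusted p = 2.4e-06 in limma). CALD1, which encodes the actin and tropomyosin binding protein caldesmon, rose from 1120 to 2500 (1.15 ± 0.24, adjusted p = 0.0037). TMOD3, a tropomodulin that caps the pointed end of filaments coated with tropomyosin, was at 5290 in EPI and 2800 in MES controls (-0.92 ± 0.16, adjusted p = 0.0014), under the fold cutoff. After knockdown 0 of 13 were called in either state. The largest differences in EPI cells were those of MYL9 (-1.05 ± 0.37, adjusted p = 0.32), TMOD1 (1.03 ± 0.52, adjusted p = 0.58) and MYL12A (-0.41 ± 0.18, adjusted p = 0.49), and in MES cells those of TMOD1 (1.18 ± 0.58, adjusted p = 0.26), CALD1 (-0.58 ± 0.27, adjusted p = 0.23) and ACTB (0.54 ± 0.39, adjusted p = 0.44). TMOD1 had a mean of under 10 scaled reads in all 4 groups.

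Splicing factors described as acting on tropomyosin exons or on EMT splicing had a level in 13 of 16 cases. In the EMT comparison ESRP1 and ESRP2, the epithelial splicing regulators, fell with log2 fold changes of -4.05 ± 0.26 (adjusted p = 3.4e-07 in limma) and -3.45 ± 0.20 (adjusted p = 1.8e-07). QKI, an RNA-binding protein of mesenchymal and muscle cells, rose (1.06 ± 0.18, adjusted p = 8e-04). PTBP2, the neuronal relative of PTBP1, was at 18.5 and 43.5 scaled reads (1.14 ± 0.57, adjusted p = 0.17). After knockdown 0 of the 13 splicing factors were called in either state. In EPI cells the largest difference was that of QKI at 0.55 ± 0.18 (adjusted p = 0.27), followed by PTBP2 (-0.34 ± 0.57, adjusted p = 0.94) and MBNL2 (-0.27 ± 0.31, adjusted p = 0.88). In MES cells it was that of ESRP1 at -0.95 ± 0.29 (adjusted p = 0.081), followed by RAVER1 at 0.87 ± 0.33 (adjusted p = 0.14) and MBNL1 at -0.77 ± 0.27 (adjusted p = 0.12). PTBP1, the polypyrimidine tract binding protein known to act at tropomyosin exons, was at 8980 and 8970 scaled reads in EPI control and shAKAP8 (-0.01 ± 0.14, adjusted p = 0.99). In MES cells PTBP1 was at 9110, 7792 and 7618 in controls and at 11013 and 10534 in shAKAP8, without overlap (0.40 ± 0.16, unadjusted p = 0.027, adjusted p = 0.17 in limma). The part of these factors in the exon 6 differences was not tested. Of 8 striated muscle troponins only TNNT1, the slow skeletal muscle troponin T, had a level, and it fell from 289 to 50.7 scaled reads between EPI and MES controls (-2.63 ± 0.42, adjusted p = 0.00057). After knockdown TNNT1 differed by -0.50 ± 0.42 in EPI cells (adjusted p = 0.81) and by -0.39 ± 0.47 in MES cells (adjusted p = 0.67).

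The eCLIP lists, in which the authors merged the replicates of a state, place AKAP8 on TPM4 and TPM1 but not beside exon 6. Of 24637 peaks in EPI cells, 9 lay on the coding strand of a tropomyosin gene, 8 in TPM4 and 1 in TPM1. Of 30390 in MES cells, 2 did, both in TPM4 and both under the log2 ratio that the paper requires of high-confidence sites. No peak lay in TPM2 or TPM3, and 0 lay within 500 bases of an exon 6 of any gene in either list. Since each state has a single merged list, these values have no replicate check.

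In TPM4, 6 of the EPI peaks sat close together and began 197 to 457 bases after the first exon of the canonical transcript. The one with the smallest p, at chr19:16187734-16187842 on the plus strand, had a log2 ratio of immunoprecipitate over input of 4.24 and a -log10 p of 87.61, and in 2 coding transcripts of TPM4 an alternative exon reaches into it. The highest log2 ratio of the 6, 5.15, was that of the 30-base peak just before it (-log10 p 23.04). The other 2 EPI peaks lay further along the gene and overlapped each other. They were at the end of the intron before the canonical exon at chr19:16198837-16198907. The closer of them ended 4 bases before the start of that exon (chr19:16198736-16198833, log2 ratio 3.73, -log10 p 10.91). The MES peaks of TPM4 had lower log2 ratios, 1.66 (-log10 p 5.86) and 1.65 (-log10 p 2.74), against a median of 3.36 over the MES list. The TPM1 peak in EPI cells lay in the intron between the first exon and exon 2a, 318 bases before 2a (chr15:63335526-63335587, log2 ratio 3.49, -log10 p 5.9).

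The TPM1 peak, the TPM4 peak that ends 4 bases before an exon and the TPM2 intron are printed to show their runs of G, a letter pattern that several splicing regulators such as hnRNP H and hnRNP F bind. Capitals mark runs of 3 or more G on the coding strand (motif GGG, overlapping matches counted once as a run).
TPM4 peak at the intron end: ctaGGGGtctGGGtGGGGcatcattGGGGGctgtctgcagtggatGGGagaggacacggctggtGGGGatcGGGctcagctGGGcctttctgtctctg
TPM1 peak: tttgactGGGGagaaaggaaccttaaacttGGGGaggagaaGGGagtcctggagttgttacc
TPM2 intron from 6a to 6b: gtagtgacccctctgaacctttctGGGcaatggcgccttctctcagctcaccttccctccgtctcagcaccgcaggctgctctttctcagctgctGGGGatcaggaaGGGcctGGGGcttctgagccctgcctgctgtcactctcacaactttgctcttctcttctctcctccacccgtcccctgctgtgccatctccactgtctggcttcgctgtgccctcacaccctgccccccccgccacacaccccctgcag

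The TPM4 peak at the intron end holds 8 such runs in 98 bases and the TPM1 peak 3 in 62. The TPM2 intron (chr9:35684805-35685060, minus strand, 256 bases) holds 4. In the 250 bases before TPM2 exon 6b there were 4 runs, and 34.3% of the windows of this length before 37595 tested skipped exons held at least as many. In the 250 bases after exon 6b there were 10, and 6.0% of the windows after those exons held at least as many. This was the lowest share of all windows counted beside the variable exons. The window was 40.8% G and covers the next exon, and the other windows were not matched for base content. For TPM1 exon 6b the counts were 1 before (84.2% of windows held at least as many) and 2 after (67.9%), and for TPM3 exon 6b they were 3 before (46.9%) and 4 after (39.3%). A run of G in a window is a match of letters, and no AKAP8 peak was listed at any of these exon 6 windows.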

How the data were processed

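Junction reads of 15 rMATS tables were used, 5 event types in each of 3 comparisons. Per the paper's methods and the submitters' processing notes, the authors aligned reads to GRCh37 with STAR, kept unique alignments and ran rMATS with Gencode v24 before these read counts were deposited. The eCLIP peaks were deposited with a log2 ratio of immunoprecipitate over input and a -log10 p, both computed by the authors after merging replicates. The tables list the libraries of a group without replicate numbers, and their position in the list served as a name. The deposited gene expression table pairs no usable gene symbols with its values and was not used, nor were the authors' own PSI values, fold changes and p-values.

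PSI was computed from inclusion and skipping reads divided by their effective lengths. Groups were compared by a quasi-binomial likelihood-ratio F test, with the dispersion moderated by limma 3.58.1 (squeezeVar, robust trend on the reads of the rarer form) in R 4.3.3 and Benjamini-Hochberg adjustment within event type and comparison. The test of whether the knockdown effect differed between states used all 11 libraries. Gene levels were sums of skipped-exon junction reads over events present in all 3 comparisons (9209 genes, 9017 tested with at least 10 scaled reads in 2 libraries), so a read on several events counts more than once and a change in splicing can alter them; limma on log2(value + 1) fitted all 4 groups, with size factors by median of ratios. The splicing test, the gene level test and the test of the difference between states were tried on simulated data, and the other steps were not. The tropomyosin members, the marker and partner lists and the rules for naming events and genes were chosen with earlier results of these data known: events called in any comparison, the most-read variable exons of each gene, and, of each list, the called genes or the 3 with the largest change. Depth limits the rare forms, and shares rest on counts whose error is given by the spread between libraries. Alternatives changed the dispersion, its trend, the test, the read filter, the scaling, the pseudocount and the libraries included. One of the genes most like a member is not reported here.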

Additional observations from a re-analysis of the deposited data

Results flagged for a closer look

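The TPM1 exon 6 pair was singled out because the effect of AKAP8 knockdown on the share of exon 6a differed between the states in the test of the difference itself. The effect was -7.68 points in EPI cells and 1.33 points in MES cells, a difference of 9.02 points (unadjusted p = 1.1e-06, adjusted p = 0.0053 in the quasi-binomial test moderated with limma), which is under the 10-point cutoff for a call. The 3 EPI shAKAP8 libraries all had a lower 6a share than the 3 EPI controls, whereas MES shAKAP8 and MES control libraries overlapped. The skipped-exon event of the same exon differed by 15.7 points (adjusted p = 0.48).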

How the results depend on the processing

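No paired analysis was possible because the tables list the libraries of a group without replicate numbers and a place in a list is not a label. Libraries at the same place may still share a source of variation: the retained intron event of TPM2 was highest in the library listed last in EPI controls (9.28%), EPI shAKAP8 (11.2%) and MES controls (7.77%). The counts of called tropomyosin splicing events depended on the moderation of the dispersion: without it 0 were called in EPI knockdown, 0 in MES knockdown and 0 in EMT, and with limma on the logit of PSI 0 and 0 in the knockdowns, settings under which 0 events of the whole table were called in either knockdown. The cause was not tested. With 3 MES control libraries, 1 was called in MES knockdown. Leaving out 1 library gave 2 to 4 calls in EPI knockdown (2 without EPI control 2, where the TPM2 exon 6b event stood at 9.73 points) and 1 to 2 in MES knockdown, where a group of 1 library is assumed to vary like the other. The difference of the knockdown effect between states gave 1 call with the trend on all junction reads, and 0 to 1 with a library left out, a set of fits chosen after seeing the data. Its TPM1 exon 6 value ranged from 7.29 to 10.6 points there (adjusted p = 0.00011 to 0.12). Without a minimum fold change, 2 tropomyosin gene levels were called in EMT, TPM4 being the other. The AKAP8 call in MES cells was lost without MES control 1 or 3 or either shAKAP8 library (adjusted p = 0.063 to 0.18). Scaling to total reads moved the median log2 fold change of all genes to -0.14 in MES knockdown and to -0.10 in EMT, and put TPM3 in MES knockdown at -0.07.

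Events that changed sign were all uncalled and near zero. With 3 MES controls the TPM3 134-base exon stood at -0.149 points. Over the fits that left out 1 library, the ranges in points were as follows. In EPI knockdown they ran from -0.268 to 0.219 for TPM3 exon 9a, -0.00379 to 0.0376 for TPM3 exon 6a, and -0.0302 to 0.0534, -0.091 to 0.0225 and -0.156 to 0.0544 for the 118-, 76- and 70-base exons of TPM4. In MES knockdown they ran from -0.142 to 2.06 for the TPM1 exon 6 pair and -0.832 to 0.298 for its 6b event, -0.0363 to 0.055 for the TPM2 134-base exon, -0.0284 to 0.0565, -0.0237 to 0.0675 and -0.125 to 0.13 for TPM3 6b, 6a and the 134-base exon, and -0.187 to 0.0658 and -0.016 to 0.00265 for the 118- and 70-base exons of TPM4. In EMT they ran from -0.348 to 0.391 for the TPM1 exon 2 pair and -0.434 to 0.0924 for its 2a event, and -0.0439 to 0.0397 and -0.0691 to 0.118 for the 118- and 70-base exons of TPM4. Gene levels in MES knockdown ran, as log2 fold changes, from -0.23 to 0.59 for TPM1, -0.03 to 0.29 for TPM2 and -0.08 to 0.14 for TPM3.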
